A study of Mus musculus with 20 samples.

Results

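The cytosolic ribosomal protein genes were taken from the table as all symbols that begin with Rpl or Rps and a digit, or with Rplp and a digit, leaving out pseudogene symbols that hold "-ps" and the kinase genes whose symbols begin Rps6k. The pattern matched 105 symbols, of which 7 pseudogenes and 10 kinase genes were dropped. The remaining 88 genes, of 24528 in the table, were none of them at 0 in every library, and comprised 54 genes of large-subunit name and 34 of small-subunit name. RefSeq (GRCm38.p6) placed the 88 on 19 chromosomes and annotated 87 as protein coding and 1, Rps4l, as a transcribed pseudogene. GENCODE M21 differs for Rpl32l and Rpl37rt, which it gives as a processed pseudogene and a transcribed processed pseudogene. The name-based rule also took in Rps19bp1, which is named for binding a ribosomal protein and is not a subunit, and retro-copies such as Rps27rt, Rpl37rt and Rpl32l.

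The mice were TDP43-KQ, homozygous for a lysine-to-glutamine substitution that mimics acetylation in the RNA-binding domain of TDP-43, introduced into the endogenous Tardbp gene by genome editing, so that no promoter or transgene restricts it to one cell type, and TDP43-WT controls without it. Both genotypes were 18 months old, and neocortex and hippocampus were dissected from them as bulk tissue. The 20 libraries of rRNA-depleted total RNA comprised 6 TDP43-KQ and 5 TDP43-WT neocortex libraries, and 5 TDP43-KQ and 4 TDP43-WT hippocampus libraries. Both sexes were present in each group, and litters were spread unevenly over the genotypes, with 1 neocortex TDP43-WT male the only library of its litter. Female libraries of the same genotype, number and litter occurred in both regions and probably came from the same mice, which the labels do not state.

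A cytosolic ribosome holds a small subunit that decodes the mRNA and a large subunit that joins amino acids, and each ribosomal protein is needed in about equal number with the others. Their mRNAs are abundant and short, and most begin with a run of pyrimidines directly at the cap (the 5′ terminal oligopyrimidine or TOP motif), through which the protein LARP1 and the mTOR kinase set their translation and stability together. Neurons also carry ribosomal protein mRNAs into axons and dendrites.

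The start-site windows below are shown because the TOP run at the 5′ end is the sequence feature by which these mRNAs are known. They cover the 10 bases before a RefSeq start and the 20 bases from it on, read 5′ to 3′ on the gene's strand in GRCm38.p6. The letters CTTTCC are in capitals where present. For a gene with several starts, a window that holds CTTTCC was shown in preference to those without it. RefSeq windows matched 67 of the 88 genes.
Rps10, chr17:27635225-27635254, minus strand: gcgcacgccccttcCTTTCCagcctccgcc
Rpl35a, chr16:33056472-33056501, plus strand: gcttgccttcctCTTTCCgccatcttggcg
Rpl38, chr11:114668570-114668599, plus strand: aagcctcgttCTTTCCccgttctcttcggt
Rplp2, chr7:141447641-141447670, plus strand: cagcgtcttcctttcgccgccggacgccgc
Rps15a, chr7:118116128-118116157, minus strand: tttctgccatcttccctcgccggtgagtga
Rps27, chr3:90213629-90213658, minus strand: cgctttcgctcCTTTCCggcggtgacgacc
Rps27rt, chr9:114982720-114982749, minus strand: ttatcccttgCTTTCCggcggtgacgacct
Within 20 bases either side of a start, CTTTCC stood on the gene's strand in 12 of the 67 ribosomal protein genes with a window (17.9%), beside 339 of 15287 genes of the table with a window (2.22%). On the opposite strand it stood in 0 of 67, beside 296 of 15287 (1.94%). The ETS-family motif ACTTCCGG, on either strand of the whole window from 250 bases before to 50 after the start, was found in 11 of 67 (16.4%), beside 989 of 15287 (6.47%). Both motifs hold the letters TTCC, were searched separately, and a match describes the letters only. The windows of Rplp2 and Rps15a hold no CTTTCC, but from the start on they read ctttc and cttccctc, which are runs of pyrimidines. CTTTCC is an exact string and not the definition of the TOP run, so its absence does not show that the run is absent.

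The deposited values are on a log2 scale, and each gene was centred on its mean over the 6 neocortex TDP43-KQ libraries, so that 0 is that mean and a value of 0.40 is 0.40 log2 units above it. No level of expression, no order of levels between genes and no depth per library can be read from such values, and the depth is unknown here. Values lower in one group can reflect fewer cells that express these genes or less RNA per cell, which bulk tissue does not tell apart. The genes were compared by limma with sex and litter terms and Benjamini-Hochberg adjustment over all genes tested, and 87 of the 88 entered the fits. Rpl10l, the testis-enriched copy of Rpl10, was at its floor value in many libraries (between -0.04 and 0.09 throughout) and was left out by the filter on low values.

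The ribosomal protein genes moved as one block from library to library. In the neocortex the median of the 87 genes was lowest at -0.13, central at 0.04 and highest at 0.10 over the 6 TDP43-KQ libraries, against 0.08, 0.40 and 0.23 in TDP43-WT females 1, 2 and 3 and 0.17 and 0.01 in TDP43-WT males 1 and 2. In the hippocampus the medians were -0.11, -0.14 and -0.03 in TDP43-KQ females 1, 2 and 3 and 0.15 and -0.08 in TDP43-KQ males 1 and 2, against -0.07, 0.36 and 0.02 in TDP43-WT females 1, 2 and 3 and 0.14 in TDP43-WT male 1. The ranges of the genotypes overlapped in both regions, and TDP43-WT female 2 stood highest in each.

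**Figure D1:**
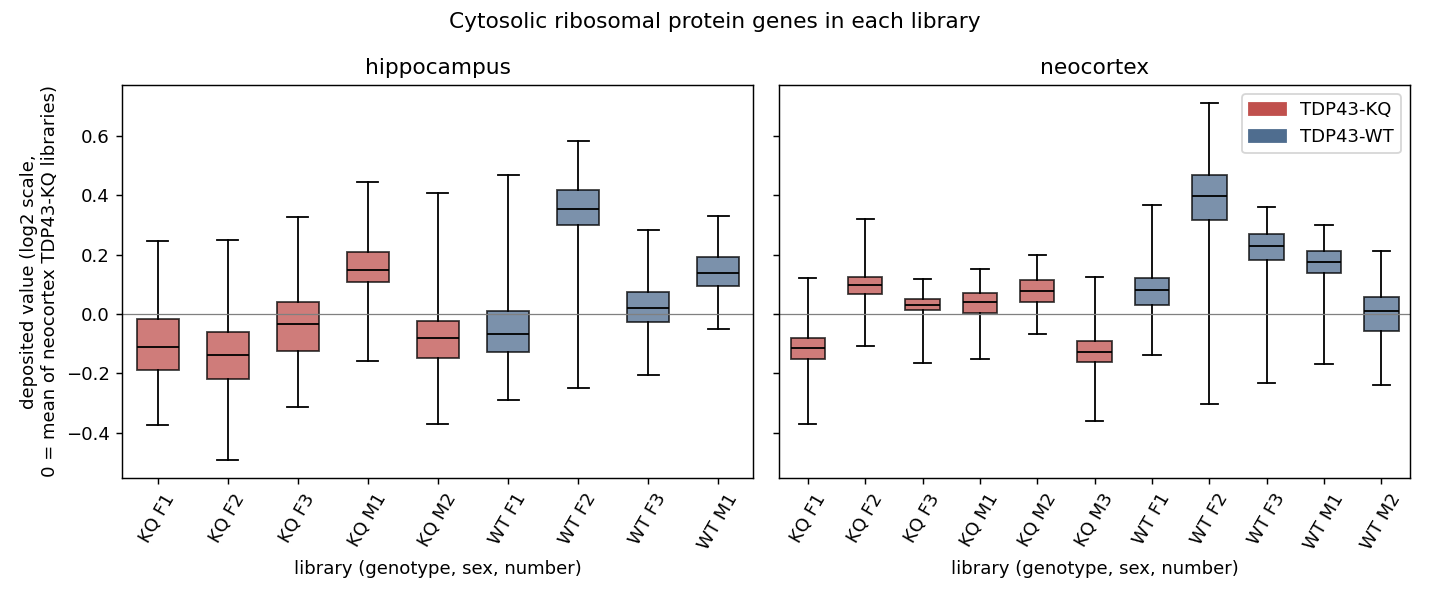
Deposited log2-scale values of the 87 ribosomal protein genes tested (y axis) in each library (x axis), hippocampus left and neocortex right. Boxes span the quartiles, lines mark medians and whiskers reach the lowest and highest gene; TDP43-WT female 2 has the highest median in both regions (0.36 in hippocampus and 0.40 in neocortex).

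TDP43-WT female 2 carried the highest value of its region for 80 of the 87 genes in hippocampus and 81 of 87 in neocortex. Most libraries had most of the genes on one side of the mean of their group. In neocortex TDP43-KQ female 1, 80 of 87 lay below the group mean, and in TDP43-KQ male 3, 83 of 87 did so, whereas in TDP43-KQ female 2, 82 of 87 lay above it. In the hippocampus, 84 of 87 lay above the mean of the group in TDP43-KQ male 1 and 85 of 87 below it in TDP43-WT female 1. The removal of litter effects limits some of these positions, because a library alone in its litter takes the mean of the rest: neocortex TDP43-WT male 1 deviated by 0.00 from its group mean at the median gene, and the TDP43-KQ female 2 libraries, the only ones of their litter, deviated by 0.10 in neocortex and -0.10 in hippocampus.

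The spread within groups was larger for these genes than for most. The median SD of a ribosomal protein gene within groups, pooled over the 4 groups, was 0.151 log2 units, beside 0.0731 for all 17863 genes tested in both regions. The spread was larger among genes of short coding sequence. The 15 ribosomal protein genes with the shortest coding sequence in GENCODE M21 (141 to 321 bases) had a median pooled SD of 0.166, and the 15 with the longest (732 to 1260 bases) 0.122. Among other genes the difference by coding length was smaller, with a median SD of 0.0774 for 1934 genes of up to 600 bases and 0.0723 for 14264 longer genes. The least variable genes were mostly copies and genes that are not subunits, with pooled SDs of 0.0280 for Rpl37rt, 0.0459 for Rpl7l1, which takes part in large-subunit assembly, 0.0602 for Rps19bp1 and 0.0639 for both Rps15a and Rpl3l. Of these 5, Rps15a alone is an ordinary gene of a small-subunit protein.

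Whether the TDP-43 substitution altered these mRNAs was asked first in the neocortex. The ribosomal protein genes were lower in TDP43-KQ at 84 of the 87 genes tested, and none passed the test (adjusted p under 0.05), where 0.0382% of all genes did. With 4 residual degrees of freedom this fit passed only 7 of 18329 genes. The 0 of 87 therefore does not show that the ribosomal protein genes were unchanged. The median difference, TDP43-KQ minus TDP43-WT, was -0.17 log2 units over the 87 genes and -0.00 over the 18329 genes tested, and 51.5% of all genes were lower. The differences of single ribosomal protein genes ran from -0.35 to 0.14, their median standard error was 0.0937 against 0.0596 for all genes, and 18 of 87 (20.7%) had an unadjusted p under 0.05, beside 13.7% of all genes. Every TDP43-KQ library lay below every TDP43-WT library at 3 of the 87 genes, Rpl10, Rpl28 and Rpl37rt, where 4.29% of all genes did so, and the reverse was seen at 0 of 87, where 773 of 18329 genes did so. The lowest adjusted p was 0.244, for Rps28.

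In the hippocampus 85 of the 87 genes were lower in TDP43-KQ and 0 passed, as did 0% of all genes. With 3 residual degrees of freedom, this fit passed not even the mutated gene Tardbp (adjusted p = 0.204 by limma). The 0 of 87 therefore does not show that these genes were unchanged. The count at an unadjusted p under 0.05 was 5 of 87 (5.75%), beside 2224 of 18310 genes (12.1%). The median difference was -0.19 log2 units over the 87 genes, with single genes between -0.38 and 0.08, and -0.00 over all genes. No ribosomal protein gene had every TDP43-KQ library below every TDP43-WT library, where 5.35% of all genes did. The lowest adjusted p was 0.305, for Rplp2. The sex and litter terms took up TDP43-WT female 3 and TDP43-KQ females 2 and 3. The hippocampus differences therefore did not depend on the values of those libraries.

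In 1 model of both regions, which has 11 residual degrees of freedom in place of 4 for the neocortex and 3 for the hippocampus, the differences were -0.17 in neocortex and -0.15 in hippocampus at the median gene, and again 0 of 87 passed in either region, where 0.224% of all genes passed in neocortex and 0.386% in hippocampus. The lowest adjusted p values were 0.245 for Rpl37rt in the neocortex and 0.247 for Rps10 in the hippocampus. In the fits per region the median rested partly on single libraries. Without the TDP43-WT female 2 library it was -0.10 in neocortex and -0.08 in hippocampus, and without TDP43-KQ female 1 it was -0.07 in neocortex and -0.11 in hippocampus. Without TDP43-WT male 2 it was -0.29 in the neocortex. It stayed below 0 with any 1 library left out, and no ribosomal protein gene passed in any of those fits. Some removals could not move it, because sex and litter terms took the library up. These were TDP43-KQ female 2 and TDP43-WT male 1 in neocortex, and TDP43-WT female 3 and TDP43-KQ females 2 and 3 in hippocampus. In neocortex, leaving out TDP43-WT female 3, TDP43-KQ female 3 or TDP43-KQ male 1 gave the same fit each time.

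The neocortex count depended on the litter term. Litter had already been removed from the deposited values. Fits without litter terms, or with litter as a random effect, do not count the degrees of freedom that this removal used. Their p-values are therefore too small. With sex but no litter in the model 8 of 87 ribosomal protein genes passed (9.2%), all lower in TDP43-KQ, where 10.6% of all genes passed. With litter as a random effect 12 of 87 passed (13.8%), where 13.2% of all genes did, and with genotype alone 14 of 87 (16.1%), where 15.0% did, again all lower. The shares of ribosomal protein genes called thus stood near those of all genes in each of these fits. In the hippocampus 0 of 87 passed under each of them, where 147 of 18310 genes passed with sex but no litter, 150 with litter as a random effect and 373 with genotype alone.

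**Figure D2:**
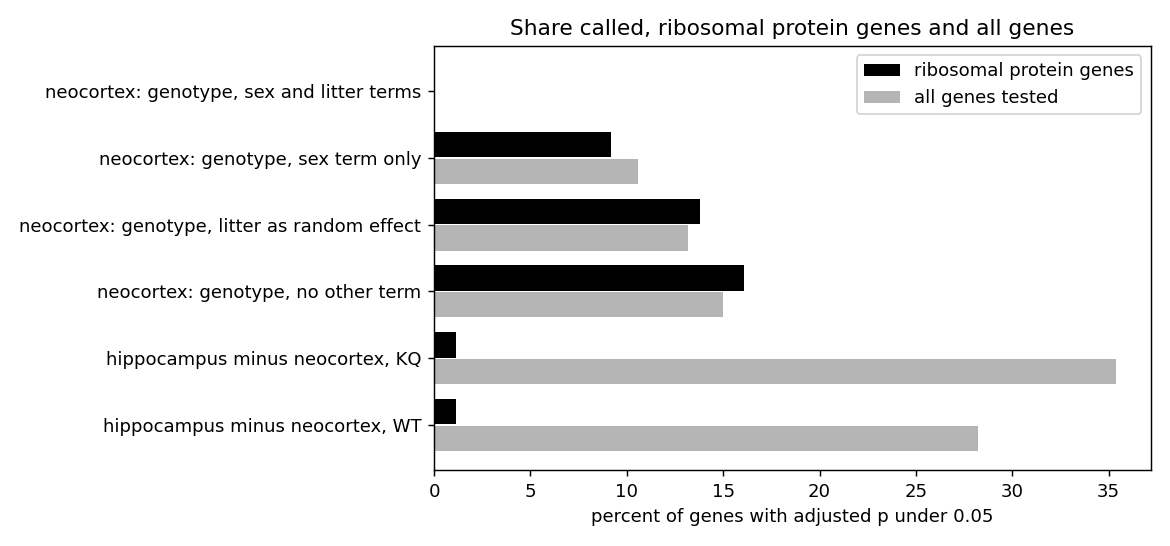
Percent of genes with an adjusted p under 0.05 (x axis) for ribosomal protein genes (black) and all genes tested (grey) in 4 neocortex genotype models and in the 2 comparisons of regions (rows). The bars stand close together in the genotype models (16.1% and 15.0% with genotype alone; 0 and 0.0382% with sex and litter), whereas between regions they are 1.15% and 35.4% in TDP43-KQ and 1.15% and 28.2% in TDP43-WT. Genotype models without litter terms, or with litter as a random effect, do not count the degrees of freedom used when litter was removed.

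Among large-subunit genes, 44 of 45 outside the P-stalk and the listed paralogs were lower in TDP43-KQ neocortex with a median of -0.17, and 44 of 45 in TDP43-KQ hippocampus with a median of -0.18. The 45 include the retro-copies Rpl32l and Rpl37rt, and Rpl32l was the exception in each region. Among small-subunit genes, 29 of 30 were lower in TDP43-KQ neocortex (median -0.17) and 30 of 30 in TDP43-KQ hippocampus (median -0.21). No gene of either subunit passed. Of 8 listed paralogs tested, 7 were lower in each region, with median differences of -0.08 (neocortex) and -0.09 (hippocampus).

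The genes farthest below 0 in the neocortex were of the large subunit with Rps25 beside them. Rpl39, which lines the exit tunnel for the new protein, had values of -0.37, 0.11 and 0.32 (lowest, median and highest) over the 6 TDP43-KQ neocortex libraries, against 0.14, 0.71 and 0.27 in TDP43-WT females 1 to 3 and 0.30 and 0.08 in TDP43-WT males. Its difference was -0.35 ± 0.18 (SE; adjusted p = 0.414 by limma), and the groups overlapped. Rpl35, at the tunnel's mouth, had -0.27, 0.05 and 0.23 in TDP43-KQ, against 0.05, 0.50, 0.25, 0.25 and 0.21 in TDP43-WT, a difference of -0.31 ± 0.12 (adjusted p = 0.313). In both genes TDP43-WT female 2 was the highest library of the region. Rpl30, Rpl35a and Rps25 followed at -0.27, -0.27 and -0.26. This order rested on single libraries: without TDP43-KQ female 1 the differences were -0.10 for Rpl39, -0.18 for Rpl35, -0.11 for Rpl30, -0.07 for Rpl35a and -0.17 for Rps25, and without TDP43-WT male 2 they were -0.55 for Rpl39, -0.44 for Rpl30 and -0.53 for Rpl35a. At Rpl10, which completes the large subunit late in its assembly, the groups did not overlap. Every TDP43-KQ library was below every TDP43-WT library at 3 of the 87 genes and at 787 of 18329 genes (4.29%). For Rpl10 the TDP43-KQ libraries ranged from -0.08 to 0.07 with a median of 0.00, and the TDP43-WT libraries had 0.11, 0.31, 0.25, 0.19 and 0.10. The 0.19 is that of TDP43-WT male 1, which was alone in its litter and took the mean of its group. The Rpl10 difference was -0.18 ± 0.06 (adjusted p = 0.293).

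The genes farthest below 0 in the hippocampus were Rps10, Rplp1, Rpl35a, Rps21 and Rplp2. Rps10, a protein of the small-subunit head near the mRNA entry, had -0.38, -0.31 and -0.30 in TDP43-KQ females 1 to 3 and 0.11 and -0.22 in TDP43-KQ males, against -0.06, 0.32 and 0.12 in TDP43-WT females and 0.19 in the TDP43-WT male. The difference was -0.38 ± 0.14 (adjusted p = 0.356), and ran from -0.51 without TDP43-WT male 1 to -0.25 without TDP43-KQ female 1. At Rps10, 4 of 5 TDP43-KQ libraries lay below every TDP43-WT library while TDP43-KQ male 1 lay among them. Of these libraries, TDP43-KQ females 2 and 3 and TDP43-WT female 3 did not enter the limma difference. In the neocortex Rps10 differed by -0.07 ± 0.11.

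The P-stalk is the flexible arm of the large subunit that recruits elongation factors, and it is built of Rplp0 at its base with pairs of Rplp1 and Rplp2. In the hippocampus Rplp2 had -0.35, -0.21 and -0.31 in TDP43-KQ females and 0.14 and -0.16 in TDP43-KQ males, against 0.02, 0.12 and 0.11 in TDP43-WT females and 0.21 in the TDP43-WT male, a difference of -0.32 ± 0.10 (adjusted p = 0.305). Rplp1 had -0.25, -0.22, -0.16, 0.24 and -0.11 in TDP43-KQ, against 0.07, 0.45, 0.14 and 0.26 in TDP43-WT, a difference of -0.35 ± 0.14 (adjusted p = 0.389). As with Rps10, TDP43-KQ male 1 alone lay within the TDP43-WT range, and the same libraries did not enter the hippocampus differences. Rplp0 differed by -0.19 ± 0.11 in hippocampus and -0.18 ± 0.08 in neocortex, where Rplp1 differed by -0.13 ± 0.10 and Rplp2 by -0.04 ± 0.10. No P-stalk gene passed in either region.

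**Figure D3:**
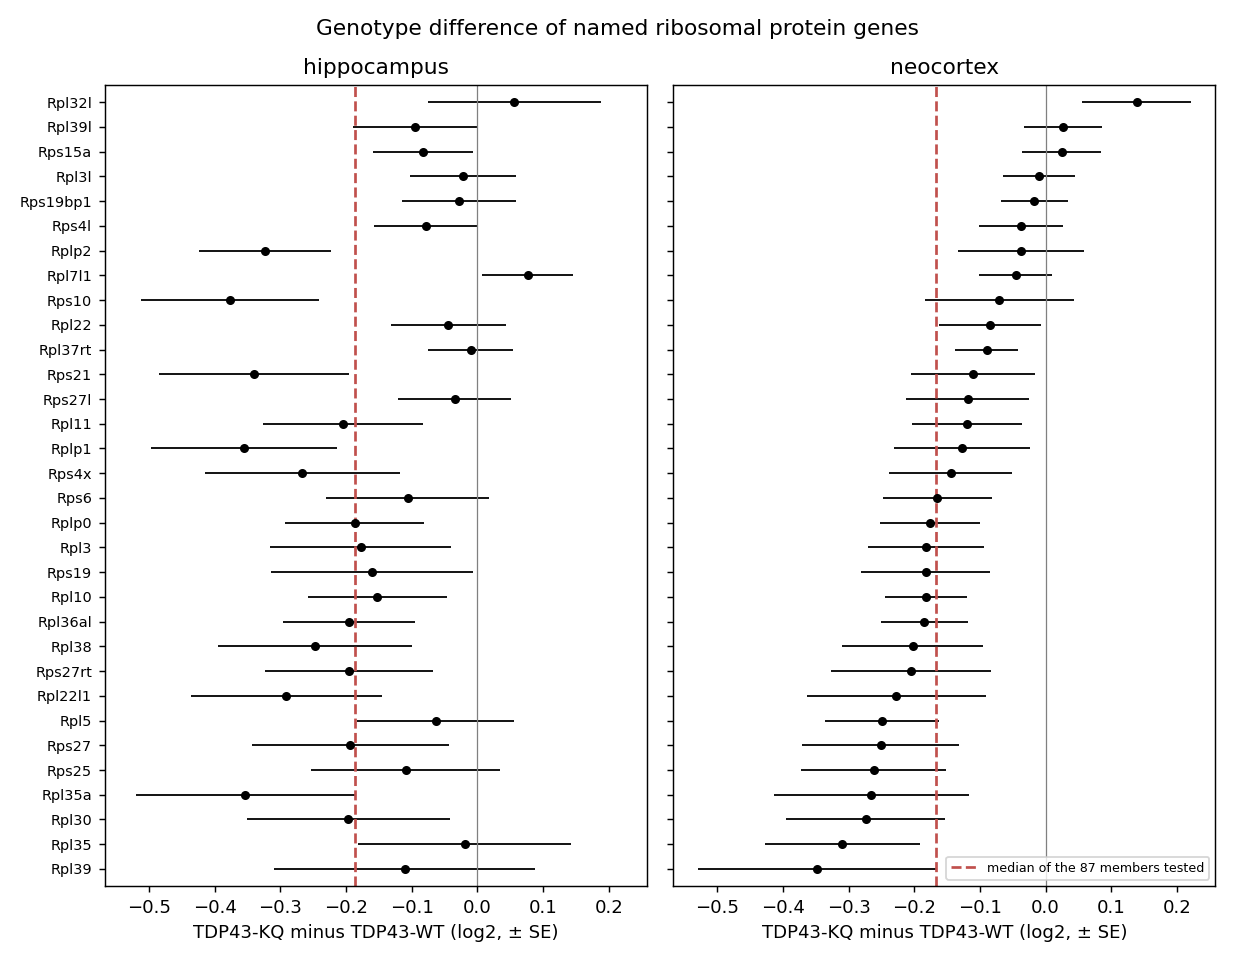
Difference TDP43-KQ minus TDP43-WT (x axis, log2 units, ± SE by limma) of the named ribosomal protein genes (rows), hippocampus left and neocortex right; the dashed line is the median of the 87 genes tested (-0.19 in hippocampus, -0.17 in neocortex). No gene passed the adjusted test; Rpl39 and Rpl35 lie lowest in the neocortex and Rps10 in the hippocampus.

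The next genes were chosen for what they are known for. Rps6, the substrate of the S6 kinases, differed by -0.17 ± 0.08 in neocortex and -0.11 ± 0.12 in hippocampus. Rpl5 and Rpl11, which together with 5S rRNA bind MDM2 when ribosome assembly is disturbed, differed by -0.25 ± 0.09 and -0.12 ± 0.08 in the neocortex and by -0.06 ± 0.12 and -0.20 ± 0.12 in the hippocampus. Rps19, mutated in Diamond-Blackfan anaemia, differed by -0.18 ± 0.10 and -0.16 ± 0.15 in neocortex and hippocampus, and Rpl38, known for the translation of Hox mRNAs in mouse embryos, by -0.20 ± 0.11 and -0.25 ± 0.15. Rpl3, at the peptidyl transferase centre, differed by -0.18 in each region (SE 0.09 in neocortex and 0.14 in hippocampus). None of these genes passed.

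Whether the genotype difference itself varied between regions was tested as an interaction, the sex and litter terms being fitted separately per region. It passed at 0 of the 87 ribosomal protein genes and at 0% of all genes, with 0 of 87 and 1654 of 17863 genes at an unadjusted p under 0.05. The interaction was above 0 at 40 genes and below 0 at 47, and its median was -0.01, hippocampus minus neocortex. This majority turned with other terms: 40 of 87 were below 0 with sex and litter terms shared by the regions (where 0 of 17863 genes passed) and 31 with the female mice as a random effect (where 855 passed). It was farthest below 0 at Rps10 (-0.31 ± 0.20) and farthest above 0 at Rpl35 (0.29 ± 0.23), and the lowest adjusted p was 0.643, for Rplp2. In the fit with separate terms, which takes all libraries as independent, the median standard error of the interaction was 0.185 for these genes. That is as large as the genotype differences themselves, so a difference between regions of that size was not detectable in that fit. With the female mice as a random effect, the correlation within a mouse was estimated at 0.628, which that fit leaves out.

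Hippocampus and neocortex were then compared within each genotype, and 1 ribosomal protein gene passed. In TDP43-KQ 1 of 87 passed (1.15%), where 35.4% of all genes did. In TDP43-WT 1 of 87 passed, where 28.2% did. The median difference, hippocampus minus neocortex, was -0.04 in TDP43-KQ and -0.06 in TDP43-WT, beside 0.01 in each for all genes, and its median size regardless of sign was 0.0678 and 0.0670, beside 0.105 and 0.107 for all genes. The standard errors were larger for these genes, at a median of 0.101 against 0.0543 in TDP43-KQ and 0.115 against 0.0617 in TDP43-WT. The TDP43-WT median was 0.02 without neocortex TDP43-WT female 2 and 0.01 without hippocampus TDP43-WT female 1, and it was -0.14 without hippocampus TDP43-WT female 2, when 7 of 87 genes passed and 5882 of all 17863 did. The TDP43-KQ median was 0.00 without TDP43-KQ female 2 of either region, and -0.10 without hippocampus TDP43-KQ male 1, when 6 of 87 genes passed and 6265 of all 17863 did. Neither sign of these medians was therefore stable to the removal of 1 library.

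The gene that passed in both genotypes was Rps4l, a pseudogene copy of Rps4x at chr6:148354656-148355596 on GRCm38.p6. It had 0.25, 0.25, 0.33, 0.37 and 0.41 in TDP43-KQ hippocampus, against -0.13, 0.03 and 0.07 (lowest, median and highest) in TDP43-KQ neocortex, and 0.47, 0.45, 0.28 and 0.33 in TDP43-WT hippocampus, against 0.09, 0.01, 0.09, 0.03 and -0.08 in TDP43-WT neocortex. Every hippocampus library lay above every neocortex library. How many of all genes did so was not counted. The difference was 0.32 ± 0.06 in TDP43-KQ (adjusted p = 0.000446) and 0.35 ± 0.06 in TDP43-WT (adjusted p = 0.000721). The genotype difference of Rps4l was -0.04 ± 0.06 in neocortex and -0.08 ± 0.08 in hippocampus, and TDP43-WT female 2 was not its highest library in either region.

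Rps4x, the X-linked parent gene, which encodes a small-subunit protein, had regional differences of -0.01 ± 0.10 in TDP43-KQ and 0.02 ± 0.12 in TDP43-WT. The best local alignment of their GENCODE M21 transcripts had 649 identical bases of 811 (80.0%). Of the other genes with a positive regional difference, Rps27l, a variant of Rps27 that responds to p53, had 0.21, 0.08, 0.25, 0.27 and 0.17 in TDP43-KQ hippocampus, against a range of -0.16 to 0.11 in TDP43-KQ neocortex. Its regional difference was 0.20 ± 0.08 in TDP43-KQ (adjusted p = 0.0556) and 0.13 ± 0.09 in TDP43-WT (adjusted p = 0.281). With the female mice as a random effect it passed in TDP43-KQ, at 0.20 (adjusted p = 0.0320). The most negative regional difference in TDP43-WT was that of Rpl31, at -0.28 ± 0.12 (adjusted p = 0.110), with Rpl12, Rpl39, Rpl24 and Rpl35 between -0.24 and -0.21. With the random effect Rpl31 passed, at -0.29 (adjusted p = 0.0446).

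**Figure D4:**
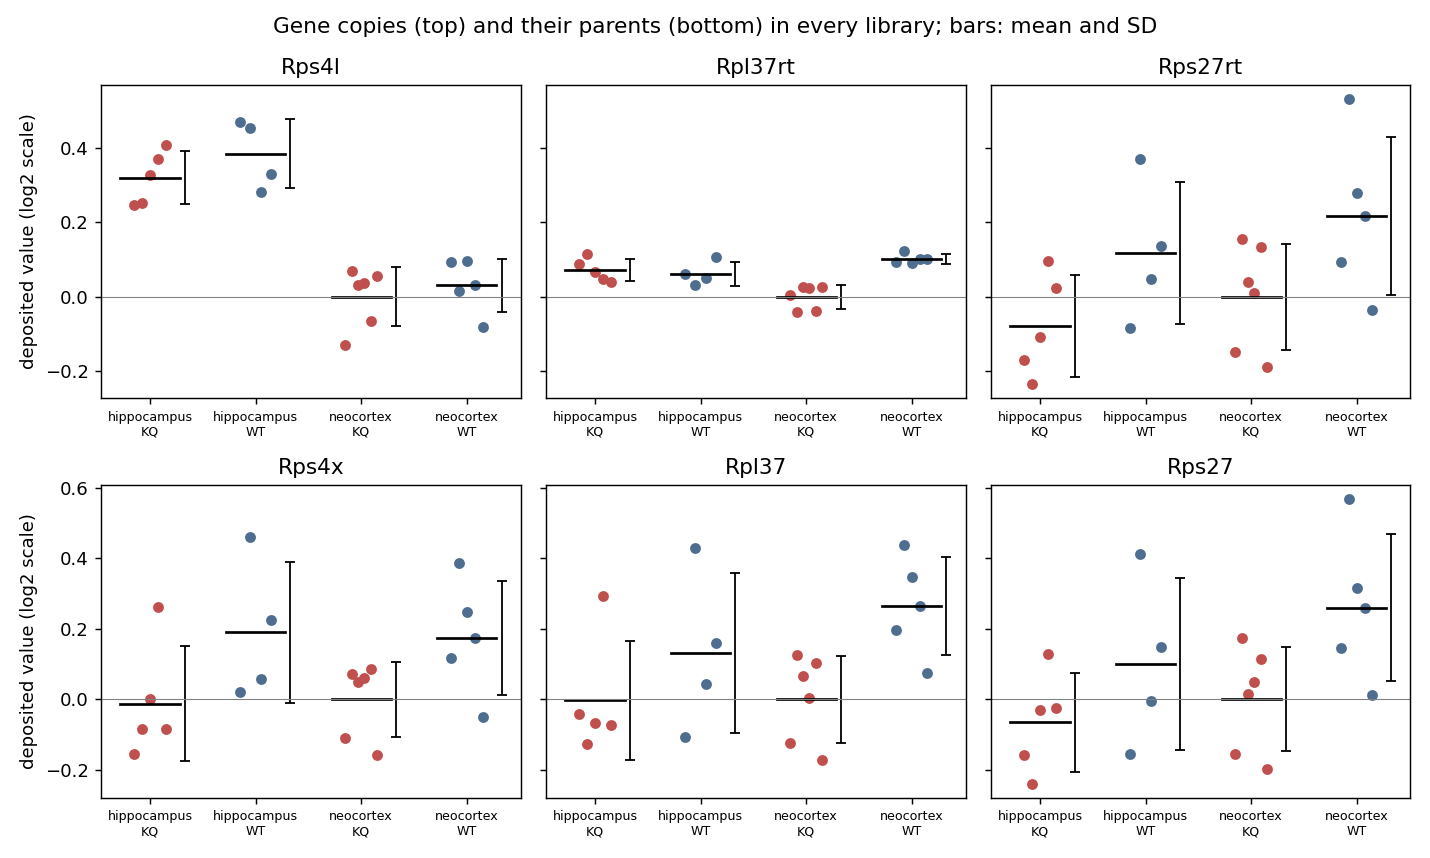
Deposited log2-scale values (y axis) of 3 copies (top) and their parent genes (bottom) in every library of the 4 groups (x axis); points are libraries, lines are means and bars SD. Rps4l is higher in every hippocampus library (0.25 to 0.47) than in any neocortex library, a separation that was not counted over all genes. Rpl37rt hardly varies, and Rps27rt has the pattern of Rps27.

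Copies of ribosomal protein genes share sequence with their parents, so the reads of near-identical pairs could have been split or moved between them. The transcript of Rps27rt matched that of Rps27 over 341 of 341 aligned bases without a gap, as the shared letters after CTTTCC in the windows above begin to show. The pair had nearly the same values: in the neocortex -0.19, 0.02 and 0.16 (lowest, median and highest) for Rps27rt and -0.20, 0.03 and 0.17 for Rps27 over the TDP43-KQ libraries, against 0.09, 0.53, 0.28, 0.22 and -0.03 for Rps27rt and 0.15, 0.57, 0.32, 0.26 and 0.01 for Rps27 in TDP43-WT. Separate values for the pair are therefore uncertain.

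Rpl37rt matched Rpl37 at 343 of 344 aligned bases (99.7%), but its transcript is 682 bases long, so much of it lay outside the alignment. It moved little. Rpl37rt ranged from -0.04 to 0.03 in TDP43-KQ neocortex, against 0.09 to 0.12 in TDP43-WT neocortex. These ranges do not overlap, and 4.29% of all genes likewise had every TDP43-KQ neocortex library below every TDP43-WT one. In the hippocampus it ranged from 0.04 to 0.11 in TDP43-KQ, against 0.03 to 0.11 in TDP43-WT. Its genotype difference was -0.09 ± 0.05 in the neocortex (adjusted p = 0.426) and -0.01 ± 0.06 in the hippocampus. Rpl37 itself ranged from -0.17 to 0.12 in TDP43-KQ neocortex, against 0.08 to 0.44 in TDP43-WT neocortex. Rpl32l, identical to Rpl32 at 388 of 398 bases (97.5%), moved against the block and was the gene with the highest neocortex difference, 0.14 ± 0.08 (adjusted p = 0.465): it had -0.17, 0.01 and 0.17 in TDP43-KQ, against -0.06, -0.30, -0.23, -0.17 and -0.08 in TDP43-WT, with TDP43-WT female 2 lowest.

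Paralogs that are less alike included some that followed the block and some that did not. Rpl36al (87.7% identical to Rpl36a) differed by -0.18 ± 0.07 in neocortex and -0.20 ± 0.10 in hippocampus. Rpl22l1, whose level is known to be held down by its paralog Rpl22 in mice, differed by -0.23 ± 0.14 and -0.29 ± 0.15, and Rpl22 by -0.08 ± 0.08 and -0.04 ± 0.09. Both genes of the pair were highest in TDP43-WT female 2. Rpl3l, of heart and skeletal muscle, and Rpl39l, of male germ cells, differed by -0.01 ± 0.06 and 0.03 ± 0.06 in the neocortex and by -0.02 ± 0.08 and -0.09 ± 0.09 in the hippocampus. Rpl39l had the same value, -0.142, in both TDP43-KQ male hippocampus libraries, a tie such as values at the floor of the transformation give. Its small differences may therefore not reflect a stable level. None of these 5 genes passed.

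Other parts of the translation machinery were compared by lists. Of 15 translation factors with TOP mRNAs, 15 were lower in TDP43-KQ neocortex (median -0.14) and 14 in TDP43-KQ hippocampus (median -0.09). Of 30 other initiation factors, 28 and 26 were lower, with medians of -0.07 in both. No gene of these lists passed in either region. By lowest p they were led in the neocortex by Tpt1 and Eif4g2 and in the hippocampus by Hnrnpa1 and Eif4h.

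The genes that make ribosomes did not lie as far below 0. Of 37 nucleolar assembly factors, 28 were lower in TDP43-KQ neocortex and 24 in TDP43-KQ hippocampus, with medians of -0.03 in both, and Gnl2 had the lowest p in each. Of 11 RNA polymerase I genes tested, 5 and 3 were lower, with medians of 0.04 and 0.07. Of 13 regulators of ribosomal protein mRNA translation, among them Larp1 and Mtor, 3 and 7 were lower (medians 0.05 and -0.00). Mitochondrial ribosomal proteins, which serve another ribosome, were lower at 75 of 78 genes in TDP43-KQ neocortex and 65 of 78 in TDP43-KQ hippocampus, both with a median of -0.08. No gene of these 4 lists passed in either region. Of the 7 ribosomal protein pseudogenes left out by the rule, 3 were lower in each region, with median differences of 0.02 (neocortex) and 0.03 (hippocampus). Other genes with coding sequences of up to 600 bases were lower at 1412 of 2003 genes in TDP43-KQ neocortex and 1326 of 1997 in TDP43-KQ hippocampus, both with a median of -0.05.

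Lists outside translation were set beside these values. Of 79 genes of the respiratory chain and ATP synthase, 73 were lower in TDP43-KQ neocortex and 72 in TDP43-KQ hippocampus, with medians of -0.11 and -0.14. Their library medians were highest in TDP43-WT female 2 in both regions (0.20 in hippocampus and 0.31 in neocortex). The 7 long RNAs retained in the nucleus, among them Malat1, Neat1 and Meg3, lay the other way: TDP43-WT female 2 had the lowest median of its region, at -0.47 in hippocampus and -1.06 in neocortex. In the neocortex the highest nuclear RNA medians, 0.63 and 0.45, were those of TDP43-KQ female 1 and male 3, the libraries with the lowest ribosomal protein medians. By genotype the 7 were all higher in TDP43-KQ, with medians of 0.52 in neocortex and 0.16 in hippocampus, and 0 passed. The part of RNA composition or quality in the ribosomal protein values was not tested.

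**Figure D5:**
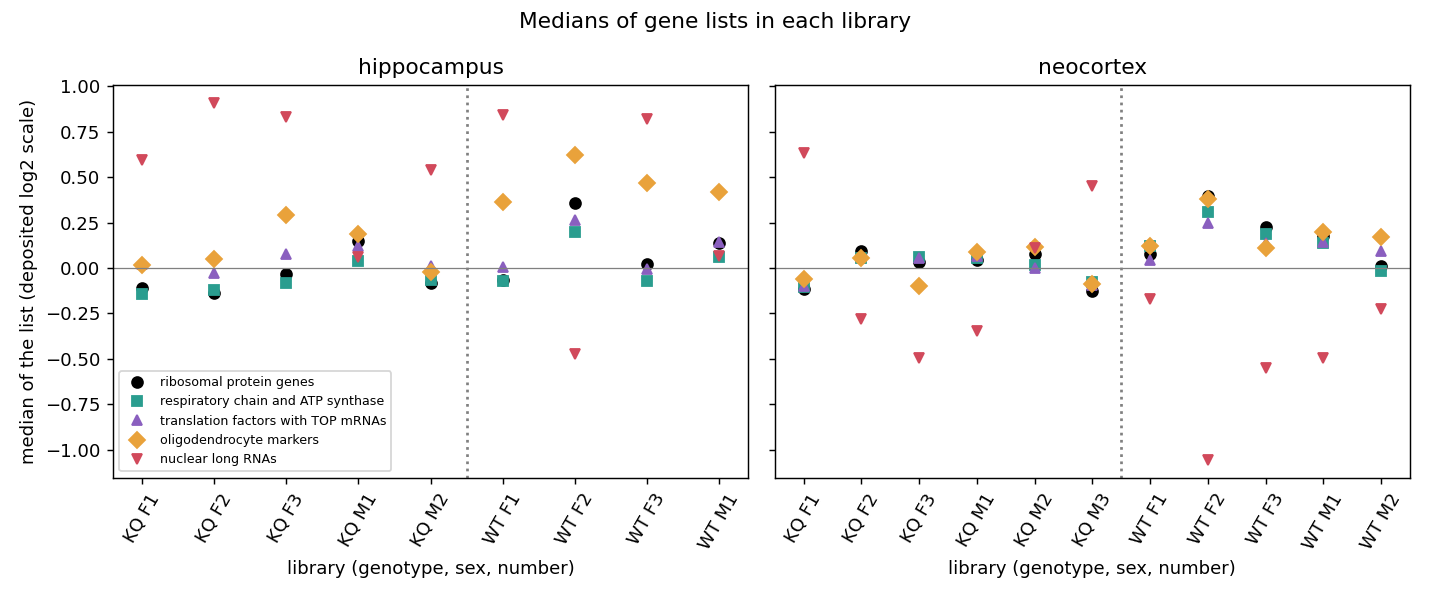
Median of each gene list (y axis, deposited log2 scale) in each library (x axis), hippocampus left and neocortex right, TDP43-KQ left of the dotted line and TDP43-WT right of it. In TDP43-WT female 2 the ribosomal protein median is highest (0.36 and 0.40) and the nuclear long RNA median lowest (-0.47 and -1.06).

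Markers of cell types were set beside these values. The 8 oligodendrocyte markers were all lower in TDP43-KQ, with medians of -0.21 in neocortex and -0.37 in hippocampus, where their library medians, -0.02 to 0.29 in TDP43-KQ, against 0.36 to 0.62 in TDP43-WT, did not overlap. The 8 microglia markers were all lower, with medians of -0.17 in neocortex and -0.20 in hippocampus. Their library medians in the neocortex were -0.12 to 0.08 in TDP43-KQ, against 0.07 to 0.29 in TDP43-WT. Astrocyte markers were lower at 8 of 8 (median -0.15) and 6 of 8 (median -0.19), endothelial markers at 6 of 6 (median -0.16) and 3 of 6 (median -0.02), and neuron markers at 7 of 10 (median -0.03) and 10 of 10 (median -0.14). Choroid plexus markers were lower at 6 of 6 in the neocortex (median -0.22) and at 0 of 6 in the hippocampus (median 1.62), where their library medians ran from 0.12 to 3.12 in TDP43-KQ, against -0.25 to 1.75 in TDP43-WT. No marker passed in the fits per region. In the model of both regions 1 did, Sox10, a transcription factor of oligodendrocytes, which was lower in TDP43-KQ hippocampus, with a difference of -0.53 ± 0.08 (adjusted p = 0.0155). Levels of markers cannot be read from centred values, and their part in the ribosomal protein values was not tested. The mutated gene itself, Tardbp, was higher in TDP43-KQ by 0.99 ± 0.07 in the neocortex (adjusted p = 0.00192) and by 0.86 ± 0.13 in the hippocampus (adjusted p = 0.204). In the model of both regions it was higher by 1.00 ± 0.09 in neocortex (adjusted p = 0.000117) and by 0.83 ± 0.10 in hippocampus (adjusted p = 0.00163).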

How the data were processed

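The authors depleted rRNA from total RNA, trimmed the reads with cutadapt, aligned them to mm10 with STAR 2.5.2b, estimated transcript abundance with salmon, and deposited log2-like values from the variance-stabilising transformation of DESeq2 1.34.0, from which sex and litter effects had been removed with limma in R 4.1.0. The values are per gene and centred on the mean of the neocortex TDP43-KQ libraries (largest absolute mean 8.33e-09), so counts and depth are unknown and no interval for counting error is given. Strand is not given in the sources used here.

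The genotypes were compared per region with limma 3.58.1 in R 4.3.3, with sex and litter refitted so that residual degrees of freedom (4 and 3) allow for their removal. A model of all 20 libraries gave regional differences and the interaction. Genes at 0 throughout (4383), and genes tied within 1e-06 in all 3 libraries of one sex and litter (at the floor of the transformation), were left out, leaving 18329, 18310 and 17863. The threshold was an adjusted p of 0.05. The fits were tested on simulated data. Litter-mates are not independent, and p-values measure the spread between these libraries.

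Genes were named by rule: per genotype comparison and for the TDP43-WT regional difference the 5 highest and 5 lowest differences, P-stalk genes, listed paralogs, Rps19bp1, and 12 genes of known role; Rps28, Rpl28, Rpl32, Rpl37 and the groups by coding length were chosen after their values were seen, as were the lists of mitochondrial ribosomal proteins, respiratory chain, pseudogenes and short coding genes. The genes and lists were chosen with earlier results of these data known. Alignments used Biopython 1.88. The list of ribosomal proteins under other symbols is not reported here.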

Additional observations from a re-analysis of the deposited data

Results flagged for a closer look

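Within groups of 4 to 6 libraries, the gap between an extreme library and its neighbour was compared with the range of the group (Dixon's test) for the median of the ribosomal protein genes and for 35 named genes. Of 144 such groups 3 held a library that stood apart, where chance flags about 1 in 20 groups. All were in TDP43-KQ hippocampus. Male 1 was high for Rplp1, at 0.24 with the others between -0.25 and -0.11, and for Rpl12, at 0.0640 with the others between -0.26 and -0.18. Female 3 was low for Rpl3l, at -0.21 with the others between -0.11 and -0.07. The library medians held no such case, TDP43-WT female 2 included.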

How the results depend on the processing

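In the neocortex the count of ribosomal protein genes past the threshold, 0 with sex and litter terms, was 14 with genotype alone, 8 with sex kept and litter left out, and 12 with litter as a random effect. Those alternatives give p-values that are too small, since litter had already been removed from the values. The count stayed 0 with robust estimation of the spread, other filters or each library centred on its median, and 0 in the fit of the hippocampus alone under each alternative run. Female libraries treated as repeated mice by a random effect gave 2 genes for the regional difference in TDP43-KQ and 3 in TDP43-WT (where 7031 and 6019 of 17863 genes passed), and leaving out both TDP43-WT female 2 libraries, an alternative chosen after seeing the data, gave 2 in each (6601 and 4665 of all genes).

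Replicate numbers did not pair the libraries: over 9 pairs of equal number the correlation of deviations ran from -0.604 to 0.117, and 0 of 9 matched best to their own number. With the replicate block in place of sex and litter, 14 genes passed in the neocortex (where 1856 of 18329 genes did) and 0 in the hippocampus. In the model of both regions it gave 1 gene each (1137 of 17863 genes in neocortex, 941 in hippocampus), Rps9 in the hippocampus, and for the regional differences 7 in TDP43-KQ and 8 in TDP43-WT (7780 and 7173 of all genes). The block fits also lack litter terms and do not count the degrees of freedom used when litter was removed.

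With single libraries left out, the genotype median lay between -0.29 and -0.07 in the neocortex and between -0.27 and -0.08 in the hippocampus, and in the model of both regions between -0.28 and -0.10 and between -0.21 and -0.06, with 0 genes passing throughout. In the fits per region some of these removals could not move the median, as given above. The counts for the regional difference ran from 1 to 6 in TDP43-KQ and from 1 to 7 in TDP43-WT, beside 4978 to 6539 and 3653 to 5882 of all 17863 genes.

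Among the alternatives of model terms, signs changed for 4 genes near 0. With genotype alone, with litter left out, with litter as a random effect and with the replicate block, in that order, the genotype difference of Rpl39l in the neocortex was -0.00341, -0.0032, -0.00372 and -0.00198. In the hippocampus, in the same order, it was -0.0227, -0.0046, -0.00445 and -0.0273 for Rpl32l and 0.0097, 0.0104, 0.0139 and 0.0174 for Rpl37rt, and 0.0148 for Rps19bp1 with the block. With single libraries left out, signs changed in the neocortex for Rpl39l (-0.0344 to 0.0731), Rpl3l (-0.0442 to 0.0328), Rplp1 (-0.344 to 0.00688), Rplp2 (-0.251 to 0.0537), Rps15a (-0.00783 to 0.0554), Rps19bp1 (-0.0434 to 0.00956) and Rps4l (-0.135 to 0.0442). In the hippocampus they changed for Rpl22 (-0.0971 to 0.00994), Rpl32l (-0.0542 to 0.15), Rpl35 (-0.16 to 0.114), Rpl37rt (-0.0617 to 0.0412), Rpl39 (-0.274 to 0.0507), Rpl39l (-0.264 to 0.074), Rpl3l (-0.0729 to 0.0261), Rpl5 (-0.145 to 0.0200), Rps19bp1 (-0.077 to 0.0289), Rps25 (-0.213 to 0.011), Rps27l (-0.0902 to 0.0176) and Rps4l (-0.214 to 0.0579). The cause of these changes was not tested. Depth is unknown, so its limits cannot be given.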
